A study of Mus musculus with 19 samples.

Results

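The 9 genes described here encode transcription factors and receptors that set the gene expression of the hepatocyte. They were taken by name from the 31053 genes listed in the deposited table, without a threshold on their values, and are *Hnf4a*, *Foxa2*, *Foxa3*, *Cebpa*, *Onecut1*, *Nr5a2*, *Rxra*, *Nr1i2* and *Nr1i3*. All 9 had enough counts to be tested in each of the 3 comparisons. Their transcripts were measured in livers of male C57BL6J mice, aged 6 to 8 weeks when the study began, by sequencing the 3′ ends of polyadenylated RNA. The vehicle group received PBS, without thioacetamide and without a vector (n = 5). The AAV-GFP group received thioacetamide (TAA), a hepatotoxin that causes liver fibrosis, in rising doses for 12 weeks, and an AAV8 vector with eGFP under the TBG promoter after 10 weeks (n = 7). The AAV-miR-34b/c group received the same TAA course, with AAV8 vectors for miR-34b and miR-34c, both under the TBG promoter and given together, in place of the GFP vector (n = 7). Livers were taken 4 weeks after the vector. The TBG promoter is active in hepatocytes, so that both transgenes were directed to these cells. Because only the TAA-treated mice carried a vector, TAA and the vector cannot be told apart in the comparisons with vehicle.

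HNF4A, a nuclear receptor, and C/EBPα hold the adult hepatocyte programme together and act on the genes of plasma proteins, lipid transport and bile acid synthesis. FOXA2 and FOXA3 are forkhead proteins that bind liver enhancers, and HNF6, the product of *Onecut1*, is a cut-homeodomain protein needed for bile duct formation and liver development. LRH-1, the product of *Nr5a2*, regulates genes of bile acid and cholesterol handling. The pregnane X receptor (PXR, *Nr1i2*) and the constitutive androstane receptor (CAR, *Nr1i3*) sense drugs and other foreign compounds and bind DNA together with RXRα, the product of *Rxra*. Thioacetamide becomes toxic only after oxidation by enzymes of the hepatocyte, cytochromes P450 among them.

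Total counts per library ranged from 2214073 to 5208405 (median 2991704). Mitochondrial transcripts took 3.71% to 5.65% of the counts in all 5 vehicle libraries, AAV-GFP libraries 5 to 7 and AAV-miR-34b/c libraries 1 and 2, and 7.85% to 10.8% in the other 9 libraries, all from TAA-treated mice. The balance of long and short transcripts moved with this share. The mean log2 CPM of genes with transcripts of at least 5151 bases minus that of genes with transcripts of at most 1743 bases was -1.67 to -0.88 in the libraries under 7% and -0.87 to -0.45 in those over 7%. The clock output gene *Dbp* stood at 64.5 to 107 CPM in vehicle livers and below 36 CPM in all but 3 livers of TAA-treated mice. A clock score, the mean log2 CPM of *Dbp* and other clock output genes, was 4.27 to 5.61 in vehicle livers. It was 1.60 to 3.93 in TAA livers except AAV-GFP 7 and AAV-miR-34b/c 5 and 7. Fits against vehicle with this score as covariate therefore cannot separate the clock from the group. Beyond counting error, 6 pairs of libraries within a group varied from each other with a coefficient of 0.0812 to 0.171, whereas the remaining 46 pairs gave 0.215 to 0.48, although the labels give each library as a biological replicate. After these close pairs are summed, the vehicle group holds 3 samples, the AAV-GFP group 6 and the AAV-miR-34b/c group 4. The summed CPM of 11 hepatocyte markers, among them *Alb* and *Hnf4a* itself, overlapped between the groups (91863 to 109586 in vehicle, 86618 to 99942 in AAV-GFP and 94662 to 133676 in AAV-miR-34b/c). In whole liver, fewer hepatocytes and less RNA per hepatocyte cannot be told apart.

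The bases upstream of the start sites are shown for the 3 genes that passed the test in a comparison with vehicle. RefSeq gave 14 windows for the 9 genes, each the 250 bases before an annotated start (GRCm38.p6, read 5′ to 3′ on the strand of the gene). For *Hnf4a*, chr2:163546905-163547154 (plus strand) precedes the start known as P1, which the adult liver uses. *Onecut1* is preceded by chr9:74861671-74861920 (plus strand) and *Nr1i3* by chr1:171213720-171213969 (plus strand). Capitals mark matches to the HNF1 core letters GTTAAT on either strand.
Hnf4a P1: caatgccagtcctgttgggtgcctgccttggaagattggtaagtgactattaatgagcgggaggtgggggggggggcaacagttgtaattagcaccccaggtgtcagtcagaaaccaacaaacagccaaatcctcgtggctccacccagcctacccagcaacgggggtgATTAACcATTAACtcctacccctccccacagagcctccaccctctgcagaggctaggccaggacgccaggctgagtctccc
Onecut1: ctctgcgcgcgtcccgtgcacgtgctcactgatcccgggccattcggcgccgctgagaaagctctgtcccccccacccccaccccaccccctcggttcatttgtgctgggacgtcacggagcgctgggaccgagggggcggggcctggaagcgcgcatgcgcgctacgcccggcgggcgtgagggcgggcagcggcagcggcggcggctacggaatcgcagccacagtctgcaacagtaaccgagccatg
Nr1i3: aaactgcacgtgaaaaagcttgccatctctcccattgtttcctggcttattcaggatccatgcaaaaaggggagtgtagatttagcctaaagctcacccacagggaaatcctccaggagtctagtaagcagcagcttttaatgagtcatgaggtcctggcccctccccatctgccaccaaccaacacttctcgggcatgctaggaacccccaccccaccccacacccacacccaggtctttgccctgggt
The *Hnf4a* window held 2 such matches, set side by side on the opposite strand. GTTAAT occurs in 6.43% of 32851 mouse windows of this length and in 3 of the 14 windows of the 9 genes. The windows of *Onecut1* and *Nr1i3* held none of the 4 motifs searched. The others were the nuclear receptor core AGGTCA (14% of all windows and 2 of the 14), the FOXA letters TGTTTAC (3.17% and 0 of the 14) and the C/EBP letters TTGCNNAA (9.56% and 1 of the 14), each on both strands. A letter match is not a measured binding site, and counts at the 3′ end do not show which start was used.

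**Figure D1:**
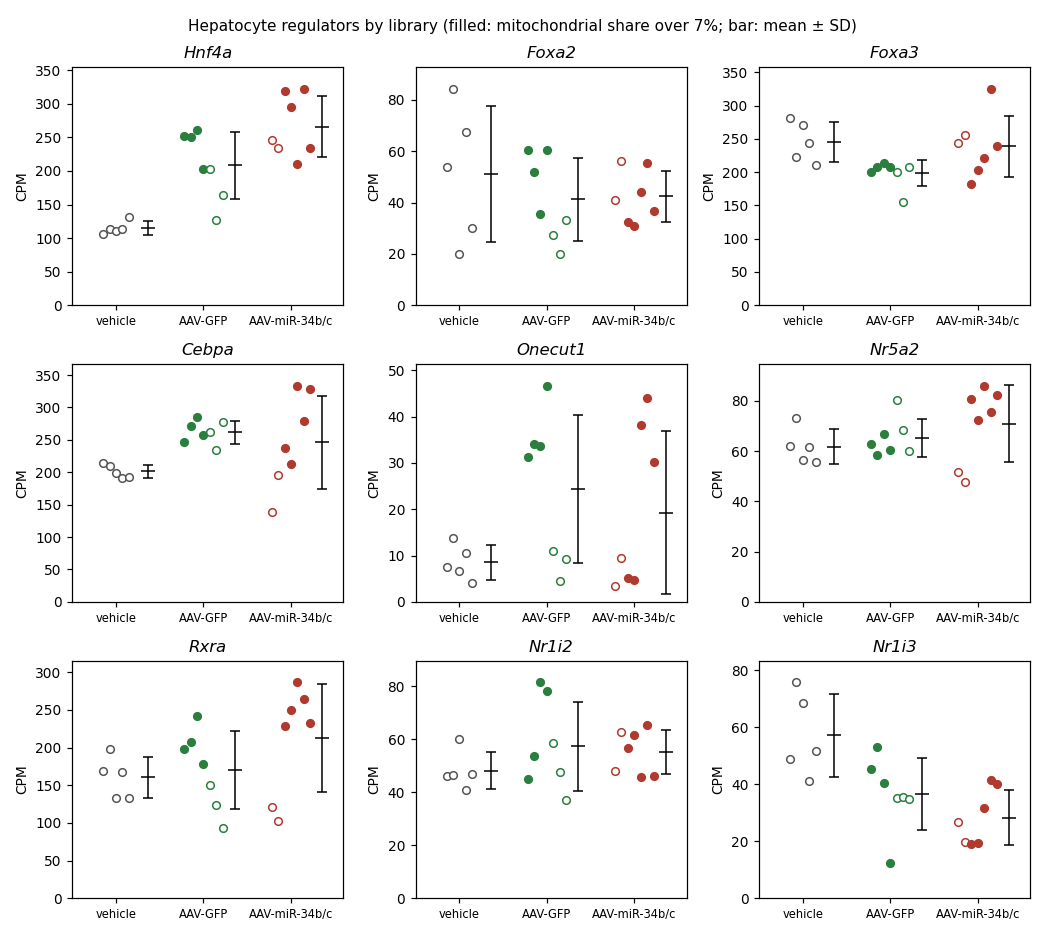
Normalized expression (CPM, linear axis from 0) of the 9 regulators in each liver given vehicle (n = 5), TAA with AAV-GFP (n = 7) or TAA with AAV-miR-34b/c (n = 7), in replicate order, with the mean ± SD at the right of each group and filled points for libraries with a mitochondrial share over 7%. *Hnf4a* was 106 to 132 CPM in vehicle livers and 210 to 322 CPM in AAV-miR-34b/c livers, and *Onecut1* in the TAA groups splits into libraries near the vehicle level and libraries at 30.3 CPM or more.

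The first question was how the regulators differed between fibrotic liver carrying the control vector and vehicle liver. *Hnf4a* and *Onecut1* were higher in AAV-GFP livers, and the other 7 genes did not pass the test. Among all 9522 genes tested, 12.7% were called, 7.54% higher and 5.19% lower, so that 2 of 9 is to be read against that background. The median log2 fold change was 0.09 over the 9 genes and -0.01 over all genes. Tests are edgeR quasi-likelihood tests with Benjamini-Hochberg adjustment over all genes tested, and genes with an adjusted p under 0.05 were called.

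The second comparison set AAV-miR-34b/c livers against vehicle livers. Here *Hnf4a* was higher and *Nr1i3* lower, and the other 7 genes did not pass. The background was 21.9% of 9290 genes, 12.2% higher and 9.75% lower. The median log2 fold change was 0.20 over the 9 genes and 0.02 over all genes. Both comparisons use the same 5 vehicle libraries.

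The third comparison asked whether miR-34b/c delivery changed the regulators in fibrotic liver. Between the TAA groups, edgeR called 0 of the 9, with 0 also at an unadjusted p of 0.05, and DESeq2 and limma-voom called 0 as well. With the contrast of long and short transcripts as a covariate, *Hnf4a* alone passed (0.40, edgeR adjusted p = 0.0391). Of 9252 genes tested, 3.36% were called, 1.95% higher and 1.42% lower. The median log2 fold change was 0.03 over the 9 genes and -0.01 over all genes. The log2 differences of the 9 genes lay between -0.38 (*Nr1i3*, standard error 0.26) and 0.34 (*Hnf4a*, standard error 0.17). When log2 CPM was compared by exact permutation (two-sided), *Hnf4a* (p = 0.0466) and *Foxa3* (p = 0.0449) had low unadjusted values, which became 0.311 and 0.307 after adjustment over all genes.

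**Figure D2:**
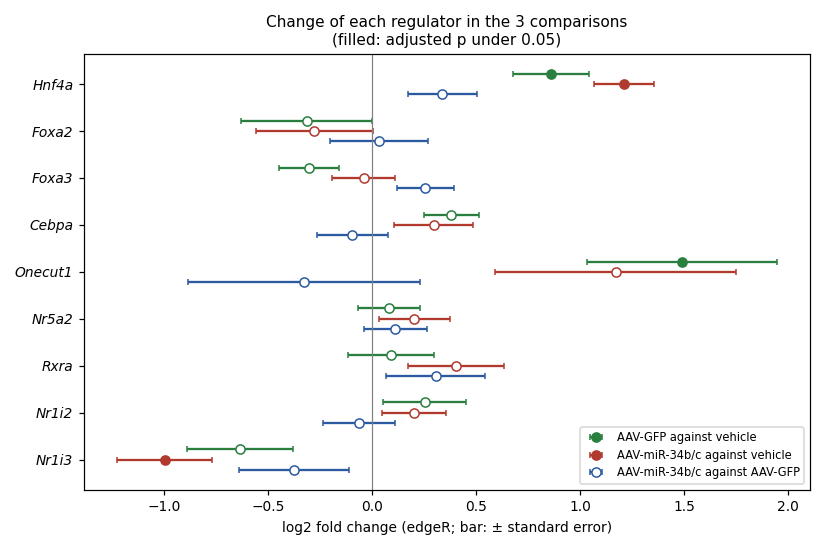
Log2 fold change (edgeR, bars ± standard error) of the 9 regulators in AAV-GFP against vehicle, AAV-miR-34b/c against vehicle and AAV-miR-34b/c against AAV-GFP, with filled points where the adjusted p is under 0.05. *Hnf4a* is filled in both comparisons with vehicle, at 0.86 and 1.21, *Onecut1* in the first and *Nr1i3* in the second, and no point is filled between the TAA groups.

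*Hnf4a* (ENSMUSG00000017950, GRCm38 chr2:163506808-163572910, plus strand) was called in both comparisons with vehicle. Its normalized expression was 106, 114, 110, 114 and 132 CPM in vehicle livers 1 to 5, and 252, 250, 261, 202, 203, 128 and 165 CPM in AAV-GFP livers 1 to 7. In AAV-miR-34b/c livers 1 to 7 it was 247, 234, 319, 296, 210, 322 and 234 CPM. All AAV-miR-34b/c livers lay above all vehicle livers, while AAV-GFP liver 6 fell within the vehicle range. Group means were 115 ± 9.78 (SD, n = 5), 209 ± 49.96 (SD, n = 7) and 266 ± 45.4 CPM (SD, n = 7).

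Against vehicle, *Hnf4a* was 1.82-fold higher in AAV-GFP livers (log2 fold change 0.86, standard error 0.18, edgeR adjusted p = 0.00538) and 2.32-fold higher in AAV-miR-34b/c livers (1.21, standard error 0.15, edgeR adjusted p = 9.996e-05). The exact permutation p (two-sided), adjusted over all genes, was 0.0622 in AAV-GFP livers, which missed the threshold, and 0.0264 in AAV-miR-34b/c livers. The call held with each library left out in turn in both comparisons. In the second one it also held with close pairs summed (1.24, edgeR adjusted p = 0.0205). Among the libraries with a mitochondrial share under 7% it was 1.08 (edgeR adjusted p = 0.000574), but there the AAV-miR-34b/c group is the close pair of libraries 1 and 2, which may be a single sample, and the 5 vehicle libraries hold 2 close pairs. In AAV-GFP livers, the difference kept its direction but no longer passed with close pairs summed (0.80, edgeR adjusted p = 0.0799), with the clock score as covariate (0.83, edgeR adjusted p = 0.202) or in libraries under 7% (0.52, edgeR adjusted p = 0.201, 3 against 5). Levels in the libraries under 7% were 128 to 203 CPM in AAV-GFP and 234 to 247 CPM in AAV-miR-34b/c. The antisense gene *Hnf4aos* shares no exon bases with *Hnf4a* and had 6 to 53 counts in a library.

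*Onecut1* (ENSMUSG00000043013, GRCm38 chr9:74861921-74891781, plus strand) was 7.55, 13.8, 6.67, 10.5 and 4.02 CPM in vehicle livers 1 to 5. In AAV-GFP livers 1 to 7 it was 31.3, 34.0, 33.7, 46.7, 10.96, 4.56 and 9.28 CPM. In AAV-miR-34b/c livers 1 to 7 it was 3.39, 9.47, 5.08, 4.78, 38.1, 43.9 and 30.3 CPM. Within each TAA group, some livers were at the vehicle level and the others lay above every vehicle liver, with no value between 13.8 and 30.3 CPM in any library. The high livers were AAV-GFP 1 to 4 and AAV-miR-34b/c 5 to 7. The values rest on 10 to 210 counts in a library.

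*Onecut1* was 2.81-fold higher in AAV-GFP than in vehicle livers (log2 fold change 1.49, standard error 0.46, edgeR adjusted p = 0.0367). Its exact permutation p (two-sided) was 0.077. The call was lost when any one of vehicle livers 1, 3, 4 and 5 or AAV-GFP livers 1 to 4 was left out (edgeR adjusted p up to 0.0865). Among the libraries with a mitochondrial share under 7%, the log2 fold change was -0.04, and levels were 4.56 to 10.96 CPM in AAV-GFP against 4.02 to 13.8 CPM in vehicle. With close pairs summed it was 1.31 (edgeR adjusted p = 0.225), with the contrast of long and short transcripts as covariate 0.46 (edgeR adjusted p = 0.423) and with the clock score 0.77 (edgeR adjusted p = 0.688). All 7 high livers had a mitochondrial share over 7%, but AAV-miR-34b/c livers 3 and 4, at 8.21% and 8.28%, were low. In AAV-miR-34b/c livers the fold change against vehicle was 1.17 in log2 units (standard error 0.58, edgeR adjusted p = 0.152). The lincRNA *Gm20649* lies on the same strand and shares 52.78% of the *Onecut1* exon bases. It had 0 to 13 counts in a library, and its mean was 1.64 CPM in vehicle, 0.259 CPM in AAV-GFP and 0.206 CPM in AAV-miR-34b/c livers.

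*Nr1i3* (ENSMUSG00000005677, GRCm38 chr1:171213970-171220701, plus strand), which encodes CAR, was 48.7, 75.7, 68.5, 41.1 and 51.5 CPM in vehicle livers 1 to 5. It was 45.2, 53.1, 40.4, 12.3, 35.3, 35.5 and 34.9 CPM in AAV-GFP livers 1 to 7, and 26.8, 19.7, 19.2, 19.5, 31.7, 41.4 and 39.9 CPM in AAV-miR-34b/c livers 1 to 7. Most livers of both TAA groups lay under the vehicle range. The exceptions were AAV-GFP livers 1 and 2 and AAV-miR-34b/c liver 6.

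*Nr1i3* was 1.997-fold lower in AAV-miR-34b/c than in vehicle livers (log2 fold change -0.998, standard error 0.23, edgeR adjusted p = 0.00687), a call that held with each library left out in turn. In AAV-GFP livers it had a log2 fold change of -0.63 (standard error 0.25), with an edgeR adjusted p of 0.101. The fold change in AAV-miR-34b/c livers was -1.27 among the libraries with a mitochondrial share under 7% (edgeR adjusted p = 0.00826), where it rests on the same close pair of AAV-miR-34b/c libraries. It no longer passed with close pairs summed (-0.99, edgeR adjusted p = 0.0754) or with the clock score as covariate (-0.69, edgeR adjusted p = 0.155). With that covariate, the AAV-GFP value was 0.03. The clock score differed between vehicle and most TAA livers, so these fits cannot separate the clock from the group. The part of the clock in these differences was not tested further. *Tomm40l*, on the opposite strand, shares 74.85% of the *Nr1i3* exon bases, and the strand setting of the counting is not given in the sources used here. *Tomm40l* had means of 9.30 CPM in vehicle, 13.97 CPM in AAV-GFP and 12.001 CPM in AAV-miR-34b/c livers.

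*Nr1i2* (ENSMUSG00000022809, GRCm38 chr16:38248323-38294824, minus strand), which encodes PXR, was 41.1 to 60.0 CPM in vehicle livers with a median of 46.7. It was 37.1 to 81.5 CPM in AAV-GFP livers (median 53.6) and 45.8 to 65.3 CPM in AAV-miR-34b/c livers (median 56.7). The 3 ranges overlapped. Log2 fold changes against vehicle were 0.25 (standard error 0.20, edgeR adjusted p = 0.406) and 0.20 (standard error 0.15, edgeR adjusted p = 0.353).

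*Rxra* (ENSMUSG00000015846, GRCm38 chr2:27676440-27762957, plus strand), the shared partner of CAR, PXR and several other receptors, was 133 to 198 CPM in vehicle livers (median 167). In AAV-GFP livers 1 to 7 it was 197, 208, 242, 178, 151, 123 and 93.8 CPM, and in AAV-miR-34b/c livers 1 to 7 it was 121, 103, 228, 250, 286, 264 and 233 CPM. Within both TAA groups the libraries with a mitochondrial share over 7% all lay above those under it, at 178 to 242 against 93.8 to 151 CPM in AAV-GFP and 228 to 286 against 103 to 121 CPM in AAV-miR-34b/c. Neither group differed from vehicle by the test (log2 fold changes 0.09 and 0.41, edgeR adjusted p = 0.804 and 0.212). Within the libraries under 7%, the values were -0.38 and -0.50 (edgeR adjusted p = 0.469 and 0.166). By limma-voom with quality weights, the difference between AAV-miR-34b/c and vehicle was called (0.58, adjusted p = 0.012), the lowest of adjusted p-values that reached 0.983 with the length contrast as covariate.

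**Figure D3:**
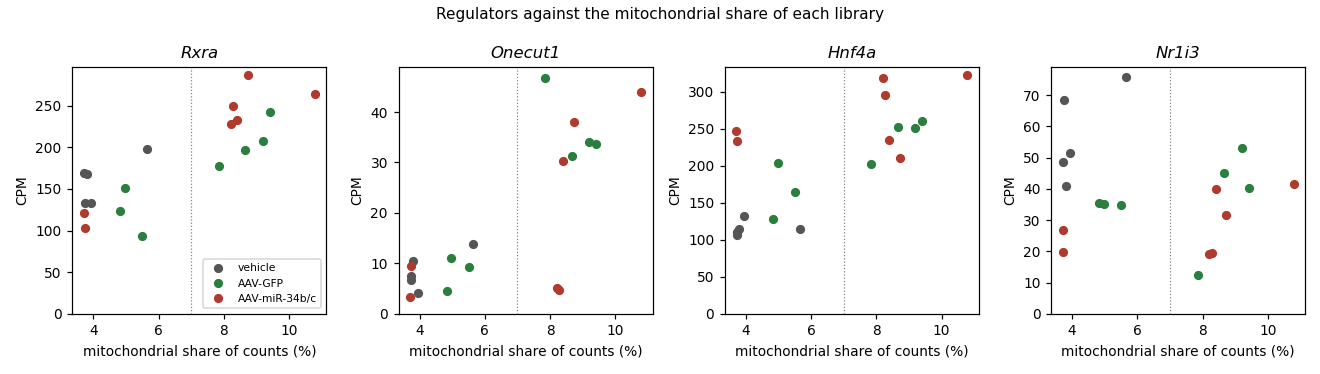
Normalized expression (CPM) of *Rxra*, *Onecut1*, *Hnf4a* and *Nr1i3* against the mitochondrial share of counts (%) of each of the 19 libraries, coloured by group, with a dotted line at 7%. In both TAA groups *Rxra* is higher in every library right of the line than in every library left of it, whereas AAV-miR-34b/c livers have more *Hnf4a* than vehicle livers on the left side as well.

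*Cebpa* (ENSMUSG00000034957, GRCm38 chr7:35119293-35121928, plus strand) was 191 to 214 CPM in vehicle livers and 234 to 285 CPM in AAV-GFP livers, with no overlap. Over all genes, 4.79% had groups that did not overlap in this comparison, 7.92% in AAV-miR-34b/c against vehicle and 1.37% between the TAA groups. The fold change was 1.30 (log2 0.38, standard error 0.13, edgeR adjusted p = 0.0638), which missed the threshold. It passed with DESeq2 (adjusted p = 0.00587), limma-voom, library size normalization and a stricter filter, and the adjusted p reached 0.373 in libraries with a mitochondrial share under 7%. With close pairs summed it was 0.38 in log2 units and did not pass (edgeR adjusted p = 0.263). The two-sided exact permutation test gave p = 0.00126, the smallest that 7 libraries against 5 allow (0.042 adjusted over all genes). That test takes the libraries of a close pair as independent.

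In AAV-miR-34b/c livers 1 to 7, *Cebpa* was 138, 196, 238, 213, 334, 279 and 329 CPM, a spread on both sides of the vehicle range. Its SD was 71.8 CPM, against 17.7 CPM in the AAV-GFP group, and the log2 fold change against vehicle was 0.30 (standard error 0.19, edgeR adjusted p = 0.27). The 2 lowest livers, 1 and 2, are a close pair and had mitochondrial shares of 3.71% and 3.73%. The 2 highest, 5 and 7, are also a close pair and held *Dbp* at 82.9 and 80.6 CPM, against 0.789 to 3.67 CPM in the other 5 livers of the group. The part of either feature in the *Cebpa* values was not tested.

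The forkhead genes did not pass the test. *Foxa2* (ENSMUSG00000037025, GRCm38 chr2:148042877-148046969, minus strand) had its widest spread within the vehicle group, at 53.9, 84.2, 20.01, 67.7 and 30.2 CPM in livers 1 to 5. It was 19.9 to 60.4 CPM in AAV-GFP and 31.0 to 56.0 CPM in AAV-miR-34b/c livers, within the vehicle range in all but 1 liver, and its log2 fold changes against vehicle were -0.32 (standard error 0.31) and -0.28 (standard error 0.28). *Foxa3* (ENSMUSG00000040891, GRCm38 chr7:19013284-19023538, minus strand) had means of 246 ± 30.1 CPM (SD, n = 5), 199 ± 20.1 CPM (SD, n = 7) and 239 ± 45.6 CPM (SD, n = 7) in the 3 groups. In AAV-GFP livers it lay between 199.9 and 214 CPM except in liver 6, at 155 CPM. Its log2 fold changes against vehicle were -0.31 (standard error 0.14, edgeR adjusted p = 0.161) and -0.04 (standard error 0.15).

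*Nr5a2* (ENSMUSG00000026398, GRCm38 chr1:136842571-136960448, minus strand) was 55.5 to 73.4 CPM in vehicle livers, 58.4 to 80.2 CPM in AAV-GFP livers and 47.7 to 86.0 CPM in AAV-miR-34b/c livers. The groups overlapped, and log2 fold changes against vehicle were 0.08 (standard error 0.15) and 0.20 (standard error 0.17, edgeR adjusted p = 0.407). In the AAV-miR-34b/c group it followed the same split as *Rxra*, at 47.7 to 51.5 CPM in the 2 libraries under 7% and 72.4 to 86.0 CPM in the 5 over 7%.

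With group means removed, the 9 genes did not vary as one set over the 19 libraries. The highest correlations of log2 CPM between them were 0.70 for *Cebpa* and *Nr5a2*, 0.68 for *Nr5a2* and *Rxra*, and 0.68 for *Cebpa* and *Onecut1*. *Hnf4a* had its highest value with *Rxra* (0.51) and values of 0.01 with both *Cebpa* and *Nr5a2*. *Nr1i2* and *Nr1i3*, the 2 xenobiotic receptors, had r = -0.30. The points share library composition. Correlation with the contrast of long and short transcripts was 0.91 for *Rxra*, 0.74 for *Onecut1*, 0.66 for *Hnf4a*, 0.58 for *Cebpa* and 0.54 for *Nr5a2*, where the 5th and 95th percentiles over all genes were -0.82 and 0.82. With the score of 6 clock output genes, r was 0.62 for *Cebpa*, 0.50 for *Nr5a2*, 0.47 for *Nr1i3* and -0.56 for *Nr1i2*, beside percentiles of -0.45 and 0.43. These are descriptions of 19 libraries that include the 6 close pairs.

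Among 9005 genes, those whose pattern over the libraries was most like each regulator, by the same measure, were *Agap1* (r = 0.89) and *Slc4a4* (0.87) for *Hnf4a*, *Nr2f2* (0.94) and *Gm45792* (0.87) for *Cebpa*, and *Hnrnpab* (0.87) and *Socs2* (0.87) for *Onecut1*. For *Rxra* they were *Itpr2* and *Rock1* (both 0.94). For *Nr1i3* they were *Cyp1a2* (0.87), a cytochrome P450 of foreign compound metabolism, and *Acsl1* (0.80), a long-chain acyl-CoA synthetase. *Foxa2* was most like *Foxq1* (0.87), another forkhead gene, and *Ptbp3* (0.86), and *Foxa3* most like *Rrnad1* (0.77) and *Pfas* (0.72). *Nr5a2* was most like *Dvl2* (0.85) and *Lrig3* (0.84), and *Nr1i2* most like *Polr3d* (0.88) and *Gm13889* (0.83). The matches of *Hnf4a* and *Rxra* have long transcripts, of 11921 and 7931 bases and of 11679 and 6440 bases. Those of *Onecut1* have 2370 and 2222 bases. The part of the balance of long and short transcripts in these likenesses was not tested.

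Other regulators of the hepatocyte were counted from a list of 25 genes. Of the 22 tested between AAV-GFP and vehicle, 4 were higher and 1 was lower, against 7.54% and 5.19% of all genes, with a median log2 fold change of 0.15. The higher ones included *Atf5*, a stress-response bZIP factor (1.36, standard error 0.26), *Gata4* (1.08, standard error 0.31) and *Klf9* (0.85, standard error 0.23). *Cebpd* was lower (-0.69, standard error 0.21). Against vehicle, 3 of 22 were higher in AAV-miR-34b/c livers and none lower (median 0.34), against 12.2% and 9.75% of all genes, namely *Atf5* (1.57, standard error 0.29), *Onecut2*, the close relative of *Onecut1* (1.35, standard error 0.42), and *Klf9* (0.47, standard error 0.15). No gene of the list was called between the TAA groups (22 tested, median 0.12). With the contrast of long and short transcripts as covariate, 2 were higher and 1 was lower there. By library size only 1 was lower (median -0.06). In libraries with a mitochondrial share under 7% 2 were lower (median -0.19), and in those over 7% 1 was. Over all genes, these settings called 992, 624, 287 and 614 in the order given, against 311 without them. By library size only, the median of all genes was -0.20. With close pairs summed, *Atf5* was the only gene of the list called in either comparison with vehicle. With the clock score as covariate, *Atf5* was 0.47 in AAV-GFP livers (edgeR adjusted p = 0.571). Among libraries with a mitochondrial share under 7%, *Klf9* was 0.29 in AAV-GFP and 0.054 in AAV-miR-34b/c livers, and in the latter *Atf5* was 0.68 (edgeR adjusted p = 0.104) and *Onecut2* -0.51.

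The summed level of 12 cholangiocyte and ductular markers was 41.3 to 73.1 CPM in vehicle, 96.3 to 174 CPM in AAV-GFP and 83.3 to 160 CPM in AAV-miR-34b/c livers. Of the 5 markers of that list tested, 4 were higher in AAV-GFP than in vehicle (7.54% of all genes). The defining markers were low, with *Krt19* at 0.742, 3.08 and 1.08 CPM and *Epcam* at 0.707, 3.58 and 1.08 CPM on average, and *Cftr* at or under 3 counts in every library. *Onecut1* is expressed by biliary cells too, and their part in its level was not tested. Markers of other cells also differed. Of 11 stellate cell and fibroblast markers tested between AAV-GFP and vehicle, 4 were higher and 1 was lower (median 0.75), and of 12 macrophage markers 1 was higher and 5 were lower, where 7.54% of all genes were higher and 5.19% lower. Between AAV-miR-34b/c and vehicle, 9 stellate cell markers could be tested and 0 were called. Some of the 11 may therefore have passed the count filter through their AAV-GFP level alone. Between the TAA groups, 2 of 10 stellate cell markers and 1 of 5 cholangiocyte markers were lower (1.42% of all genes). The same limit holds for the 10, since a marker that passed the filter through its AAV-GFP level alone could only be lower here. Of 11 macrophage markers, 2 were higher and 1 was lower there. In AAV-miR-34b/c livers, 2 of the 3 lymphocyte and neutrophil markers tested were higher than in vehicle (12.2% of all genes) and in AAV-GFP livers (1.95%). In that list *S100a8* averaged 18.2 CPM in vehicle, 14.9 CPM in AAV-GFP and 308 CPM in AAV-miR-34b/c livers. *Ptprc* averaged 17.6, 13.8 and 16.1 CPM in the same order. These counts do not tell lymphocytes from neutrophils. The part of any of these cells in the levels of the regulators was not tested.

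Partners of RXRα and other nuclear receptors formed a list of 21 genes. Of 18 tested between AAV-GFP and vehicle, 3 were higher and 1 was lower (median 0.18), against 7.54% and 5.19% of all genes. *Nr0b2*, the corepressor SHP that acts on HNF4A and LRH-1, was higher at 1.86 (standard error 0.38), as were *Rarg*, a retinoic acid receptor (1.32, standard error 0.35), and *Rora*, an orphan receptor of the clock and lipid metabolism (1.28, standard error 0.28). *Esrra* was lower (-0.92, standard error 0.26). Between AAV-miR-34b/c and vehicle, *Nr0b2* (1.77, standard error 0.59), *Rora* (1.24, standard error 0.27) and *Rarg* (1.196, standard error 0.37) were again higher and *Nr1h4*, the bile acid receptor FXR, was lower (-0.80, standard error 0.20), of 17 tested (median 0.02), against 12.2% and 9.75% of all genes. By library size only, 1 gene was higher and 3 were lower in that comparison (median -0.14). The median of all genes was then -0.13, and 2346 genes were called, against 2037 otherwise. With close pairs summed, *Nr0b2* was the only one of the list still called in AAV-GFP livers, and none of the 4 calls in AAV-miR-34b/c livers remained (edgeR adjusted p = 0.0753 to 0.158). With the clock score as covariate, none of the 4 calls in AAV-GFP livers remained (edgeR adjusted p = 0.16 to 0.671), at fold changes of 1.93 for *Nr0b2*, 1.30 for *Rora* and 1.54 for *Rarg*, no smaller than without it, and -0.43 for *Esrra*. Among libraries with a mitochondrial share under 7%, *Rora* was 0.64 in AAV-GFP and 0.53 in AAV-miR-34b/c livers, and *Esrra* was -0.52 in AAV-GFP livers, none of them called. No gene of this list was called between the TAA groups (17 tested, median -0.18). *Nr0b2* was 15.7 to 38.8 CPM in AAV-GFP livers against 1.72 to 13.7 CPM in vehicle livers. In the AAV-miR-34b/c group it was 2.82 and 6.54 CPM in livers 5 and 7, whose *Dbp* was high, and 23.6 to 44.2 CPM in the other 5, and with the clock score as covariate the fold change was -0.10.

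Genes that CAR and PXR are known to induce were described from a list of 35. Between AAV-GFP and vehicle, 4 of 23 tested were higher and 2 lower, against 7.54% and 5.19% of all genes. The median was 0.08, but -0.13 by limma-voom and 0.41 with the clock score as covariate. *Gstm3*, a glutathione transferase, was higher (2.34, standard error 0.28, edgeR adjusted p = 2.26e-05), at 41.3 to 129 CPM against 12.0 to 18.1 CPM. *Abcc3*, an export pump (1.06, standard error 0.26), *Cyp3a11*, the main PXR-induced cytochrome P450 of mouse liver (1.06, standard error 0.27), and *Cyp2a5* (1.05, standard error 0.33) were also higher. *Por*, the reductase that supplies electrons to cytochromes P450, was lower (-1.28, standard error 0.16, edgeR adjusted p = 5.36e-05), as was *Cyp2c37* (-1.54, standard error 0.32). *Gstm3* and *Por* were called in AAV-GFP livers under every setting tried. In the fit with close pairs summed, *Abcc3* (0.93, edgeR adjusted p = 0.119), *Cyp3a11* (1.16, edgeR adjusted p = 0.0872) and *Cyp2a5* (0.90, edgeR adjusted p = 0.262) were not called, and *Cyp2a5* passed in 5 of the 12 fits that left out a library. With all 3 groups in one fit, *Cyp3a11* (edgeR adjusted p = 0.116) and *Cyp2a5* (edgeR adjusted p = 0.0592) were not called either. With the clock score as covariate, *Cyp2c37* was -0.53 (edgeR adjusted p = 0.656).

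Of 22 genes of the CAR and PXR list tested between AAV-miR-34b/c and vehicle, 9 were lower (9.75% of all genes were) and 3 higher (12.2% of all genes were), and the median was -0.39. The lower genes included *Cyp2c37* (-2.38, standard error 0.29), *Slco1a4*, an organic anion uptake carrier (-2.23, standard error 0.28), *Sult2a8*, a bile acid sulfotransferase (-1.81, standard error 0.24), and *Alas1*, the rate-limiting enzyme of haem synthesis (-1.02, standard error 0.18). *Gstm3* (1.23, standard error 0.19), *Aldh1a7* (0.68, standard error 0.16) and *Cyp3a13* (0.68, standard error 0.20) were higher. With close pairs summed, 3 were lower and 1 was higher, and in libraries with a mitochondrial share under 7% both counts were 5. Over all genes, these settings called 331 and 642, against 2037 without them. *Aldh1a7* and *Cyp3a13* were both 0.37 with the clock score as covariate and were not called. *Nr1i3* itself was lower in the same comparison. Whether its level and those of its known targets are linked was not tested.

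Between the TAA groups, 3 of 22 genes of the CAR and PXR list were lower in AAV-miR-34b/c livers, against 1.42% of all genes, and none was higher, against 1.95% (median -0.56). In libraries with a mitochondrial share under 7%, 2 of 26 were lower and 2 higher (median -0.27). With the contrast of long and short transcripts as covariate, 7 of 22 were lower and 2 higher. Over all genes, these settings called 287 and 992, against 311 without them. The 3 genes were *Cyp2a5* (-1.99, standard error 0.35, edgeR adjusted p = 0.00305), *Slco1a4* (-1.32, standard error 0.31, edgeR adjusted p = 0.0186) and *Gstm3* (-1.12, standard error 0.24, edgeR adjusted p = 0.0108). All 3 were called in each of the 14 fits that left out a library. None passed with close pairs summed, at fold changes of -1.94, -1.25 and -1.08 in the same order. Over all settings *Cyp2a5* lay between -2.89 and -1.56, *Slco1a4* between -1.80 and -0.29 and *Gstm3* between -1.45 and -0.50. *Cyp2b10*, the gene most used to read CAR activity, had a single count in 1 of the 5 vehicle libraries and 0 to 50 counts in the livers of TAA-treated mice, so that its level was not measurable in most libraries. *Cyp2b13* had no count in any library.

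**Figure D4:**
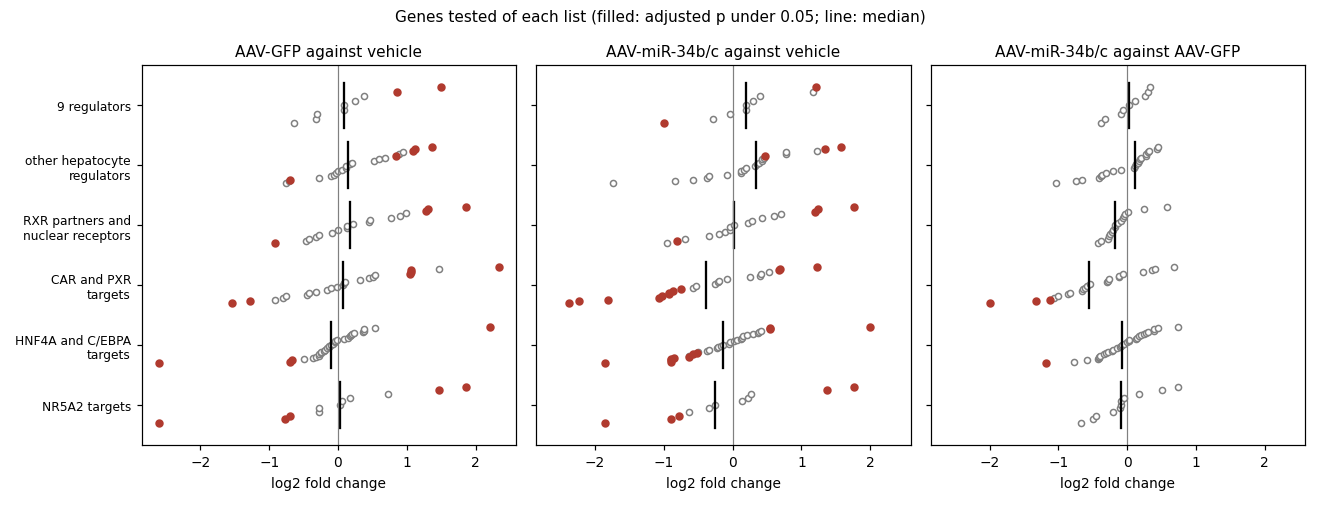
Log2 fold change of each tested gene of the 9 regulators and of the 5 lists, in the 3 comparisons, ordered by value within a list, with filled points where the adjusted p is under 0.05 and a black line at the median. The CAR and PXR targets have their median left of 0 in both panels with AAV-miR-34b/c, at -0.39 and -0.56, and at 0.08 in the panel of AAV-GFP against vehicle, where other settings put it between -0.13 and 0.41.

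Known targets of HNF4A and C/EBPα were taken from a list of 32 genes. Between AAV-GFP and vehicle, 1 of 31 tested was higher and 3 were lower (median -0.10), against 7.54% and 5.19% of all genes. *Igfbp1*, an insulin-like growth factor binding protein, was higher (2.204, standard error 0.52). *Cyp7a1*, the rate-limiting enzyme of bile acid synthesis (-2.61, standard error 0.28, edgeR adjusted p = 9.01e-06), *Slc10a1*, the bile acid uptake carrier NTCP (-0.70, standard error 0.22), and *F7*, coagulation factor VII (-0.67, standard error 0.16), were lower. *Cyp7a1* was 274 to 411 CPM in vehicle livers and 36.1 to 143 CPM in AAV-GFP livers. With close pairs summed, *Cyp7a1* was the only gene of the list called (-2.47, edgeR adjusted p = 0.00143), and *Igfbp1* (2.44, edgeR adjusted p = 0.0679), *Slc10a1* (-0.67, edgeR adjusted p = 0.18) and *F7* (-0.65, edgeR adjusted p = 0.0872) were not. With the clock score as covariate, *Igfbp1* was 0.69 (edgeR adjusted p = 0.719), and among libraries with a mitochondrial share under 7% *Slc10a1* was -0.26 (edgeR adjusted p = 0.609).

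Compared with vehicle, 3 of the 31 genes were higher in AAV-miR-34b/c livers, against 12.2% of all genes, and 8 were lower, against 9.75% (median -0.13). *Igfbp1* (1.999, standard error 0.67), *Serpina1a*, an antitrypsin gene with near-identical copies (0.55, standard error 0.16), and *F12* (0.55, standard error 0.17) were higher. *Cyp7a1* (-1.85, standard error 0.36), *Slc10a1* (-0.90, standard error 0.15) and *Otc*, a urea cycle enzyme (-0.63, standard error 0.14), were among the lower. After summing of close pairs, *Cyp7a1* and *Slc10a1* were the only genes called. With the clock score as covariate, 1 gene of the list was lower and 0 were higher. Over the 12 other settings *Cyp7a1* lay between -2.29 and -1.21 and was called in 11. *Igfbp1* was -0.82 with the clock score as covariate, and among libraries with a mitochondrial share under 7% *Serpina1a* was 0.26 and *F12* 0.096, none of them called. Between the TAA groups, *G6pc*, glucose-6-phosphatase, was the only gene of the list that was called (-1.18, standard error 0.16, edgeR adjusted p = 0.000279), at 349 to 481 CPM in AAV-miR-34b/c and 680 to 1370 CPM in AAV-GFP livers, and this call held with close pairs summed. By library size only, 5 genes of the list were lower in that comparison and 0 higher. With the contrast of long and short transcripts as covariate 3 were higher and 5 lower, and by limma-voom 3 were higher and 2 lower. Over all genes, these settings called 624, 992 and 813 in the order given, against 311 without them. *Alb* was 29612 to 51700 CPM in vehicle, 33188 to 40711 CPM in AAV-GFP and 20771 to 52186 CPM in AAV-miR-34b/c livers.

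Acute phase genes, which hepatocytes express in inflammation and C/EBP factors help to regulate, moved with the AAV-miR-34b/c group. Of 24 such genes, 21 were higher in AAV-miR-34b/c than in AAV-GFP livers (1.95% of all genes) and 15 higher than in vehicle livers (12.2%), and 6 were lower in AAV-GFP than in vehicle livers (5.19%). Their summed level was 39671 to 82016 CPM in vehicle, 28950 to 68962 CPM in AAV-GFP and 61687 to 212050 CPM in AAV-miR-34b/c livers. The part of this difference in the levels of the regulators was not tested.

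Known targets of LRH-1 formed a list of 12 genes, which shares *Cyp7a1*, *Slc10a1* and *Nr0b2* with the lists above. Of 11 tested between AAV-GFP and vehicle, 2 were higher and 3 lower (median 0.03), against 7.54% and 5.19% of all genes, with *Apom*, an apolipoprotein, at -0.77 (standard error 0.20). Between AAV-miR-34b/c and vehicle, 2 were higher and 3 lower (median -0.26), against 12.2% and 9.75% of all genes, with *Abcg5*, a sterol transporter, at -0.78 (standard error 0.22). Once close pairs were summed, neither *Apom* (edgeR adjusted p = 0.128) nor *Abcg5* (edgeR adjusted p = 0.127) was called. With the clock score as covariate, 1 gene of the list was lower and 0 were higher in each comparison with vehicle. No gene of the list was called between the TAA groups (median -0.10). *Nr5a2* itself did not pass the test in any of the 3 comparisons.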

How the data were processed

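RNA of 19 livers was sequenced by the authors with a QuantSeq 3′ kit per the labels (single-end reads of 100 bases). Reads were filtered, trimmed, aligned and counted per gene in a commercial pipeline, and the authors deposited the raw counts, without normalization. The submitters' processing notes name STAR and the build mm10. The aligner's version, the strandedness of counting and any molecular identifiers are not given in the sources used here, so that counts can include PCR duplicates, and reads of overlapping genes cannot be told apart. Totals of 2214073 to 5208405 counts per library limit the precision of low genes. Symbols came from GENCODE of GRCm38 (30934 of 31053 genes) and promoter windows from RefSeq.

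Counts were tested with edgeR 4.0.16 in R 4.3.3 (TMM, filterByExpr with minimum count 10 and total 15, glmQLFit and glmQLFTest), with the 2 groups of each comparison fitted alone and without covariates. P-values were adjusted over all genes tested. Exact permutation tests compared log2 CPM computed with 2 as prior count. The labels give each library as a biological replicate, and where close pairs share a source the p-values measure in part a technical spread.

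Named are all 9 genes, *Alb*, from each of 5 lists up to 4 genes per direction with the smallest adjusted p among those called, and for each regulator the 2 genes most like it. Other genes were named after their values were seen. A gene in 2 lists counts in both. Some genes that this rule names are not reported here. The 9 genes and all lists were chosen with earlier results of these data known. Alternatives were DESeq2 1.42.0, its size factors, library size only, 2 filters, limma-voom (limma 3.58.1), all 3 groups in one fit, a replicate block, close pairs summed and each library left out. A length contrast, a clock score (*Dbp*, *Tef*, *Per2*, *Per3*, *Nr1d2* and *Ciart*) and the mitochondrial share under or over 7% were chosen after seeing the data. Lymphocyte and neutrophil markers formed a joint list, whose sum does not tell these cells apart. Lists of stellate cell, macrophage, endothelial and lymphocyte or neutrophil markers were summed as well. Their ranges, in the order vehicle, control vector and miR-34b/c, were 417 to 659, 456 to 589 and 304 to 607 CPM for stellate cells, 489 to 978, 438 to 714 and 604 to 892 CPM for macrophages, 251 to 304, 220 to 299 and 260 to 341 CPM for endothelial cells, and 36.0 to 96.5, 27.8 to 87.4 and 71.6 to 1867 CPM for lymphocytes and neutrophils.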

Additional observations from a re-analysis of the deposited data

Results flagged for a closer look

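Within groups of 5 or 7 libraries, 30 sets of values were searched with Dixon's criterion for a library that stands apart, of which chance gives about 1.5, and 3 had one. *Foxa3* stood at 7.28 log2 CPM in AAV-GFP liver 6, where the next lowest liver of the group was at 7.65. *Nr1i3* stood at 3.69 log2 CPM in AAV-GFP liver 4, where the next was at 5.15. The total count of AAV-GFP library 5 was 4383805, above the next highest of 3239809.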

How the results depend on the processing

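For the 9 regulators and the other named genes, 75 log2 fold changes were refitted 1833 times, of which 1553 kept direction and side of the threshold, 229 lost the call, 9 gained it and 42 changed sign. The cause of these changes was not tested. Genes called between AAV-GFP and vehicle (1212) numbered 2687 by limma-voom, 3088 with a replicate block, 227 with close pairs summed (fewer samples), 772 with the length contrast as covariate, 74 with the clock score, 180 in libraries with a mitochondrial share under 7%, and 689 to 1859 with a library left out (728 without vehicle replicate 1, 689 without vehicle replicate 4, 806 without AAV-GFP replicate 3, 1859 without AAV-GFP replicate 6). Of the regulators, 1 (*Hnf4a*) was called in that comparison with all 3 groups in one fit or the length contrast, 0 with close pairs summed, the clock score or libraries under 7%, 4 with the replicate block (*Hnf4a*, *Cebpa*, *Onecut1*, *Nr1i3*) and 1 to 3 with a library left out. Between AAV-miR-34b/c and vehicle (2037 genes), there were 3839 by limma-voom, 922 with the block, 331 with close pairs summed, 615 with the clock score, 642 under 7% and 1267 to 2695 with a library left out (1328 without vehicle replicate 1, 1267 without vehicle replicate 4), and 1 regulator (*Hnf4a*) with close pairs summed or the clock score. Between the TAA groups (311 genes), there were 624 by library size only, 535 by DESeq2, 813 by limma-voom, 142 with the block, 87 with close pairs summed, 992 with the length contrast (among them 1 regulator, *Hnf4a*) and 614 over 7%. Library size alone moved the median of all genes to -0.13 (AAV-miR-34b/c against vehicle) and -0.20 (between the TAA groups).

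The following log2 fold changes crossed 0. Between AAV-GFP and vehicle, *Rxra* was -0.013 with close pairs summed, -0.27 with the length contrast, -0.086 with the clock score and -0.38 under 7%, and -0.0078 to 0.20 with a library left out. *Nr1i2* was -0.14 with the clock score and -0.0016 under 7%, *Nr1i3* 0.034 with the clock score and *Onecut1* -0.044 under 7%. Between AAV-miR-34b/c and vehicle, *Onecut1* was -0.016 with the block and -0.43 under 7%, *Foxa3* 0.046 with close pairs summed, 0.035 under 7% and -0.12 to 0.022 with a library left out, and *Nr5a2* -0.0079 with the length contrast and -0.30 under 7%. With the clock score, *Nr1i2* was -0.014, *Nr0b2* -0.10 and *Igfbp1* -0.82, and under 7% *Cebpa* was -0.26, *Rxra* -0.50 and *Onecut2* -0.51. Between the TAA groups, *Foxa2* was -0.19 by library size, -0.13 by limma-voom, -0.020 with the clock score, -0.40 over 7% and -0.088 to 0.15 with a library left out. *Nr5a2* was -0.057 by library size and -0.47 under 7%, *Rxra* -0.11 under 7%, *Nr1i2* 0.23 under 7% and -0.15 to 0.033 with a library left out, and *Cebpa* 0.055 over 7% and -0.19 to 0.0057 with a library left out.

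Deviations of same-numbered libraries correlated from -0.31 to 0.29 over 17 pairs, and in 3 of them a library matched its own number best, so that the numbers were not taken as pairing the mice. Of the 23 named genes called between AAV-GFP and vehicle, 7 were called with close pairs summed and 13 with every library left out in turn, against 8 and 16 of 25 in AAV-miR-34b/c against vehicle and 1 and 4 of 4 between the TAA groups.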
